A study of Mus musculus with 9 samples.

Results

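Heat shock proteins and DNAJ proteins are the molecular chaperones that fold new proteins, refold damaged ones and hand the rest to degradation. The members described here were taken by gene symbol: the numbered members of the Hspa, Hspb, Hspd, Hspe and Hsph families, the Hsp90 genes, the numbered Dnaja, Dnajb and Dnajc genes, the transcription factors Hsf1 and Hsf2, and the co-chaperones Bag1 and Bag3. Of the 18194 genes with a probe set of their own, 71 were members. Hsp90ab1, Hsf1 and Dnajc19 had no such probe set and were not analysed. The RNA came from 3 groups of mouse mammary samples, each with 3 biological samples lettered A, B and C. MaSC organoids were grown from mammary stem cells that had been sorted from the gland. The yMaSC organoids were grown from luminal differentiated cells that had been turned into stem-like cells by YAP, expressed from a doxycycline-inducible lentiviral vector. Both kinds grew in Matrigel under the same medium, which held EGF, bFGF, heparin, noggin and R-spondin 1, and the yMaSC organoids were kept without doxycycline at this stage. LD cells were luminal differentiated cells sorted as EpCAM-high, CD49f-low and CD61-negative, and their RNA was taken without culture. By the study's methods the mice were virgin C57BL/6J animals of 8 to 12 weeks unless stated otherwise. All LD cells were freshly dissociated and all organoids were cultured, so that cell state and culture cannot be told apart in the comparisons with LD cells. In RNA of bulk samples, moreover, fewer cells of one type and less RNA per cell cannot be told apart.

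The cytosolic heat shock response is driven by HSF1, a factor that is held inactive by chaperones and binds repeats of the bases GAA when unfolded proteins draw those chaperones away. Its best-known targets are the inducible HSP70s, their DNAJ partners, which deliver clients and stimulate the ATPase of HSP70, and the small heat shock proteins, which hold unfolded proteins without ATP. The endoplasmic reticulum and the mitochondria have chaperones of their own, with BiP (Hspa5) and mortalin (Hspa9) as their HSP70s, and each compartment answers to its own stress pathway. Dissociation of a tissue at warm temperature is known to raise immediate early genes and heat shock genes in many cell types.

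The promoters of the members differ in the elements that these pathways use, and short stretches that hold such an element are shown here for members on which the results below turn. RefSeq promoter windows of 300 bases (GRCm38.p6, 250 before the start site and 50 from it) were given for 59 of the 71 members. A heat shock element of 2 units was searched as GAANNTTC or TTCNNGAA, each of which reads the same on both strands. It was present in 7 of the 8 inducible cytosolic members with a window (87.5%), in 16 of the 59 members (27.1%) and in 17% of all 27025 genes with a window. The element was not limited to the inducible class, since 3 of 9 constitutive cytosolic, 2 of 4 mitochondrial and 1 of 10 ER members also held it. The longer form of 3 units, TTCNNGAANNTTC or GAANNTTCNNGAA, which contains the shorter one, was found in 4 members, namely Hsph1, Dnajb6, Hspd1 and Hspe1, and in 0.662% of all genes. Capitals mark these elements in the inducible members Hspa1b, Hsph1, Dnajb4 and Hspb8, in Hspb6, the member that differed most clearly between organoids and LD cells, and in Hspe1, which differed between replicate letters.
Hspa1b: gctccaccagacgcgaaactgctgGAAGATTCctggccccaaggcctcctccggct
Hsph1: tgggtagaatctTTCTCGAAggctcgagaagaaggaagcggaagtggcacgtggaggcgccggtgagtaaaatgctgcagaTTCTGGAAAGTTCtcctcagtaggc
Dnajb4: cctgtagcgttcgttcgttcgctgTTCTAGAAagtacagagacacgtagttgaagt
Hspb8: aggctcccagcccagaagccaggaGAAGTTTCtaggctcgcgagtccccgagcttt
Hspb6: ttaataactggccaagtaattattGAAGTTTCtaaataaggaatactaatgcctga
Hspe1: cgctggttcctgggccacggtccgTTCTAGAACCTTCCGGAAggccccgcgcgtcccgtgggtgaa

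These stretches lie at chr17:34959311-34959366 (minus strand) for Hspa1b, chr5:149636276-149636381 (minus) for Hsph1, chr3:152193828-152193883 (minus) for Dnajb4, chr5:116422831-116422886 (minus) for Hspb8, chr7:30553157-30553212 (plus) for Hspb6 and chr1:55088035-55088100 (plus) for Hspe1. The window of Hspe1 overlaps that of Hspd1, which starts in the other direction, so that both chaperonin genes share the same elements. A match of letters is a description and not a measured binding site.

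The endoplasmic reticulum stress element, the site of the ER stress factors ATF6 and NFY, was searched on both strands as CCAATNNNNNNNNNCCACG. It was found in 3 of the 10 ER members with a window, in 0 of the 8 inducible cytosolic members and in 0.137% of all genes. Capitals mark it in these 3, in which the other strand reads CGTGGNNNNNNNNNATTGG.
Hspa5: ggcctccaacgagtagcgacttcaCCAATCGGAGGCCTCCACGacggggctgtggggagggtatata
Hsp90b1: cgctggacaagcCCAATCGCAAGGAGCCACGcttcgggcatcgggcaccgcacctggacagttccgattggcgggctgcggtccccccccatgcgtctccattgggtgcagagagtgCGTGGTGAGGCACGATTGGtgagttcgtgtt
Dnajc3: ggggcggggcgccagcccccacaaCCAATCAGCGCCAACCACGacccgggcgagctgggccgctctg

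They lie at chr2:34772001-34772067 (plus strand) for Hspa5, chr10:86705521-86705668 (minus) for Hsp90b1 and chr14:118937803-118937869 (plus) for Dnajc3. In the data below Hspa5 fell and Dnajc3 rose, both with calls that were lost in some settings, and Hsp90b1 did not pass. The part of the element in these differences was not tested.

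Expression was read from Affymetrix arrays as log2 values computed by RMA, and all levels and differences given here are on that scale, on which 1 is a 2-fold change. One probe set, that with the highest mean over the 9 arrays, stood for each gene. The median of the probe sets lay at 5.11 to 5.15 in the 9 arrays, and 61 of the 71 members were above it on average. The other 10, among them Hsf2 and most testis genes, averaged below it in both organoids and LD cells. Levels of different genes depend on their probes and were not compared. The 3 groups were fitted gene by gene in limma, p values were adjusted by Benjamini and Hochberg's method over all genes, and a gene rose or fell where the adjusted p was under 0.05. Differences from LD cells are those of the mean of both organoid kinds unless stated otherwise.

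The chaperones did not move as one. Relative to LD cells, 16 members rose in organoids, 13 fell and 42 did not pass the test. Over all genes 24.3% rose and 17.7% fell, and the members' shares of 22.5% and 18.3% were near this background. The median difference was 0.06 for the members and -0.02 for all genes, and the median size regardless of direction was 0.33 and 0.31. In 16 members all organoid arrays lay above all LD arrays, and in 10 all lay below, against 23.3% and 17.1% of all genes. After cyclic loess, another scaling of the arrays, 12 members rose and 15 fell. Of the genes that passed after cyclic loess, 53.9% were higher in organoids, and of the members that passed 44.4%. With the deposited scaling these shares were 57.9% and 55.2%.

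**Figure D1:**
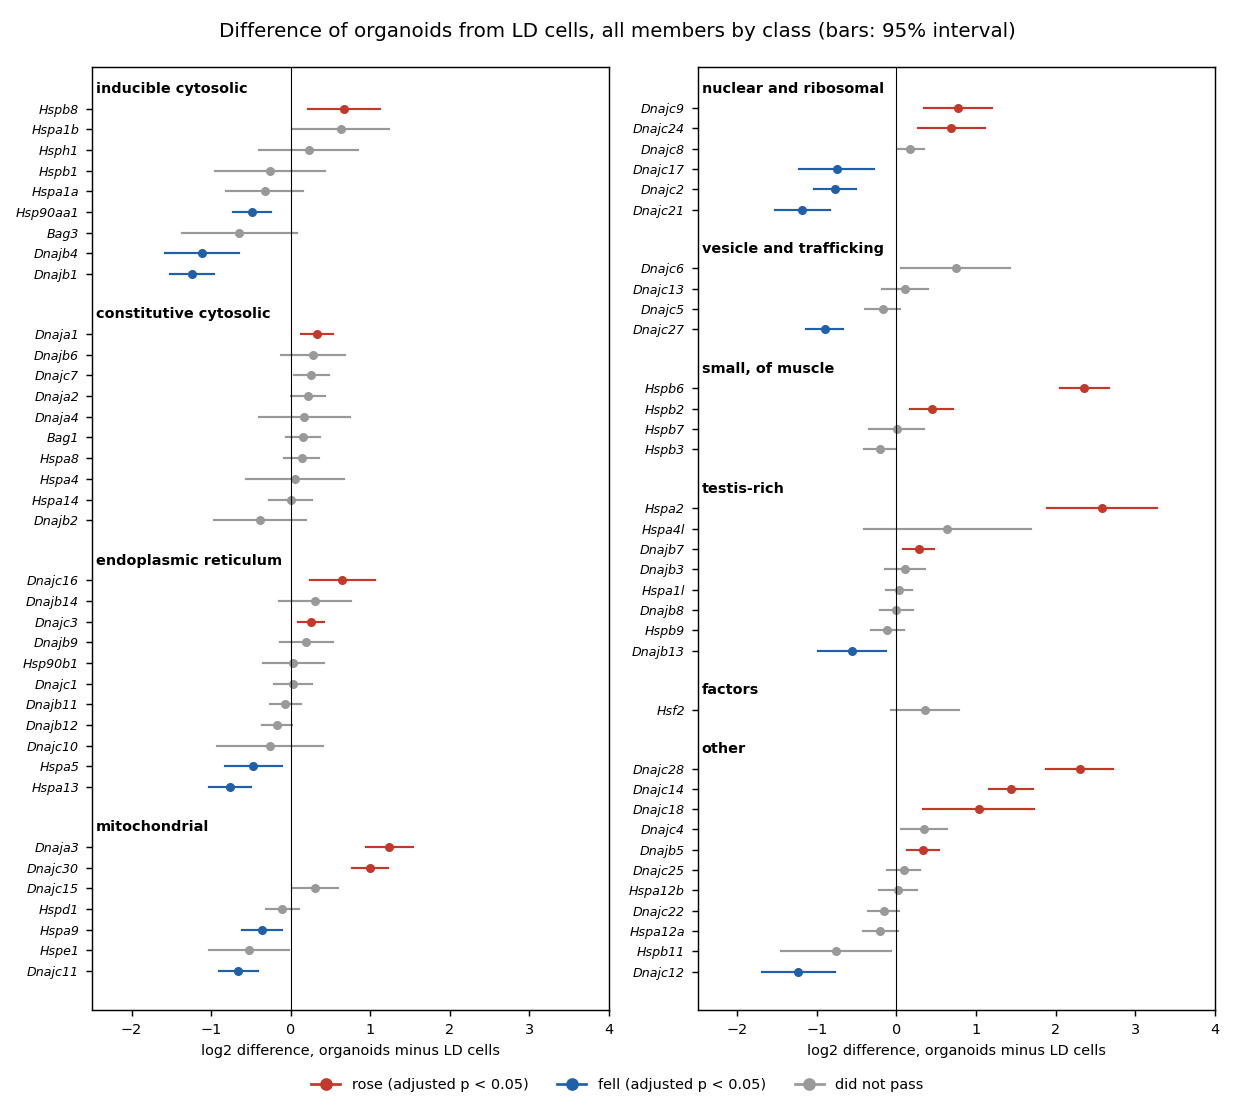
Difference of organoids (MaSC and yMaSC organoids averaged) from LD cells in log2 units for all 71 members, grouped by class, with bars for the 95% interval and colors for the result of the limma test. Members that rose and members that fell stand side by side in most classes, from 2.59 for Hspa2 to -1.24 for Dnajb1.

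Among the 9 measured members of the inducible cytosolic class, 3 fell in organoids, 1 rose and 5 did not pass, with a median difference of -0.33. Dnajb1, the main heat-inducible DNAJ partner of HSP70, had 10.00, 9.83 and 9.86 in the MaSC organoids A, B and C and 10.19, 9.87 and 9.78 in the yMaSC organoids, against 11.01, 11.37 and 11.10 in LD cells. All organoid arrays thus lay below all LD arrays, with 0.424 times the level (difference -1.24, SE 0.12, adjusted p = 6.8e-05). Dnajb4, a DNAJ of the same subfamily, had 9.40, 9.19 and 9.81 in MaSC organoids and 9.26, 9.33 and 9.24 in yMaSC organoids, against 10.83, 9.94 and 10.69 in LD cells. It fell by 1.12 (SE 0.21, adjusted p = 0.00234), and LD B was the lowest of the LD arrays. Hsp90aa1, the inducible isoform of cytosolic HSP90, read 12.22, 12.09 and 12.09 in MaSC organoids and 12.25, 12.06 and 12.15 in yMaSC organoids, against 12.69, 12.79 and 12.41 in LD cells. Its difference of -0.49 was small but without overlap (SE 0.10, adjusted p = 0.00489). In each kind of organoid taken alone, these 3 members also fell.

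Hspb8, a small heat shock protein that works with Bag3 in the disposal of damaged filaments, was the inducible member that rose. It had 9.30, 9.60 and 9.02 in MaSC organoids and 9.32, 9.63 and 9.14 in yMaSC organoids, against 8.70, 9.05 and 8.26 in LD cells. The lowest organoid array, MaSC organoid C, overlapped with LD B, and the difference was 0.67 (SE 0.20, adjusted p = 0.0251). This call for Hspb8 was lost without LD A, LD C or yMaSC organoid B (adjusted p = 0.0626, 0.103 and 0.0521) and after cyclic loess (0.0742). Its partner Bag3, a nucleotide exchange factor of HSP70, had 9.60, 9.02 and 8.92 in MaSC organoids and 9.99, 9.16 and 8.35 in yMaSC organoids, against 9.66, 9.80 and 10.00 in LD cells. The Bag3 values of the organoids spread over more than 1 log2 unit while those of LD cells lay close together, and the difference of -0.65 did not pass (adjusted p = 0.138). Without yMaSC organoid A it passed at -0.85 (adjusted p = 0.0204).

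The inducible HSP70s themselves, Hspa1a and Hspa1b, are nearly identical neighbors, and probes for one may also bind RNA of the other. Hspa1b had 13.41, 13.15 and 12.67 in MaSC organoids and 13.39, 13.06 and 12.16 in yMaSC organoids, against 12.34, 12.52 and 12.17 in LD cells. All organoid arrays but yMaSC organoid C lay above the LD arrays, and that one was as low as the lowest of them. Over all arrays the difference of 0.63 did not pass (SE 0.27, adjusted p = 0.0904), and it passed without yMaSC organoid C (0.81, adjusted p = 0.00823) or without both C organoids (0.91, adjusted p = 0.00188). Hspa1a had 10.85, 10.58 and 10.01 in MaSC organoids and 10.70, 10.58 and 10.01 in yMaSC organoids, against 10.91, 10.86 and 10.58 in LD cells. Here the point estimate was below 0, at -0.33 (adjusted p = 0.251). The probe sets of these paralogs thus did not show a common direction.

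Hspb1, the widely expressed small heat shock protein HSP27, had 12.94, 13.34 and 12.07 in MaSC organoids and 13.23, 13.29 and 12.40 in yMaSC organoids, against 12.92, 13.49 and 13.00 in LD cells. Both C organoids lay below all other arrays, and the difference of -0.26 did not pass (adjusted p = 0.534). Hsph1, an HSP110 that exchanges the nucleotide of HSP70, had 9.58, 9.26 and 9.28 in MaSC organoids and 10.52, 9.32 and 9.32 in yMaSC organoids, against 9.19, 9.66 and 9.11 in LD cells. yMaSC organoid A stood above the rest, and the difference was 0.23 with an interval from -0.39 to 0.85 (adjusted p = 0.541). Among the members that did not pass in this class, the intervals thus left room for a rise in some and a fall in others. That of Hspa1b ran from 0.02 to 1.24 and that of Bag3 from -1.37 to 0.08, without adjustment for the number of genes. The element of 2 units shown above was present in 7 of the 8 members of this class with a window. Of these, Dnajb4 fell, Hspb8 rose, and Bag3, Hspa1a, Hspa1b, Hspb1 and Hsph1 did not pass. Only 8 of the 9 members of the class had a window. Either Dnajb1 or Hsp90aa1 was therefore not searched, and the other had no match. The part of the element in these differences was not tested.

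**Figure D2:**
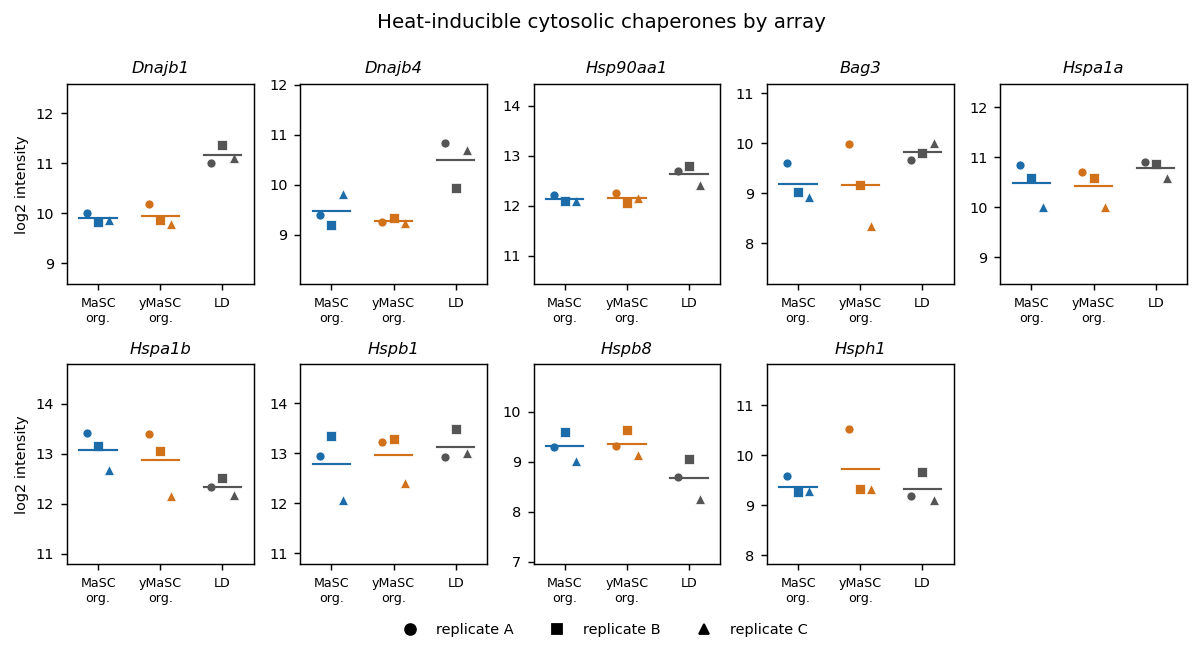
Log2 intensity of the 9 inducible cytosolic members in each array of MaSC organoids, yMaSC organoids and LD cells, with lines at the group means, marker shapes for the replicate letters and an axis of its own range for each gene. Dnajb1, Dnajb4 and Hsp90aa1 lie lower in all 6 organoid arrays than in any of the 3 LD arrays, while Hspa1b lies higher in all organoid arrays but yMaSC organoid C.

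Genes that respond early to tissue dissociation were measured beside these members, because LD cells had been dissociated just before RNA was taken. Of 12 such genes, 11 fell in organoids and 0 rose, against 17.7% and 24.3% of all genes. The 3 that fell most were Fosb (-7.63, adjusted p = 8.95e-08), Atf3 (-5.58, 1.18e-05) and Zfp36 (-3.14, 1.04e-06), which encode AP-1 and CREB family factors and an mRNA decay protein. The value for Fosb is a lower limit, since its organoid arrays were near the lower quartile of all probe sets. The mean level of the list was 8.51 to 9.18 in organoid arrays and 11.76 to 11.91 in LD arrays. Its part in the differences of the inducible chaperones was not tested.

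A list of genes that are not members, most of them partners of HSP70 and HSP90, was read as well. It also held Cryab, a small heat shock protein, and Serpinh1, a collagen chaperone, neither of which passed (adjusted p = 0.128 and 0.0528). Of the 16 measured, 6 rose in organoids and 0 fell, against 24.3% and 17.7% of all genes. Their median difference was 0.37, against -0.02 for all genes. Bag4, which regulates the nucleotide cycle of HSP70, rose by 2.15 (adjusted p = 1.64e-04), Chordc1, a partner of HSP90, by 1.14 (adjusted p = 3.33e-04), and Stub1, the ubiquitin ligase that marks chaperone clients, by 0.92 (adjusted p = 2.45e-04). The cytosolic chaperonin CCT, a ring of 8 subunits that folds actin and tubulin, showed 0 subunits that rose and 1 that fell, Cct2 (-0.38, adjusted p = 0.0131).

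Constitutive cytosolic members changed little. Of 10, Dnaja1 rose and the other 9 did not pass, with differences from -0.39 to 0.28 and a median of 0.16 in the class. Over all genes 24.3% rose and 17.7% fell. Dnaja1, a general DNAJ partner of Hspa8, had 11.72, 11.54 and 11.74 in MaSC organoids and 11.82, 11.60 and 11.59 in yMaSC organoids, against 11.38, 11.33 and 11.31 in LD cells. The groups did not overlap although the difference was only 0.33 (SE 0.09, adjusted p = 0.0168), and without LD C the adjusted p of Dnaja1 was 0.0514. For Hspa8, the constitutive HSP70 of the cytosol, the interval ran from -0.09 to 0.36. The result of Hspa8 depended on the probe set, however, since 1 of its 3 others fell by 2.42 (adjusted p = 7.22e-04) and the mean of all its probe sets fell by 0.47 (adjusted p = 0.0115). The one that fell was the dimmest, with means of 5.27 in organoids and 7.70 in LD cells. The remaining ones, with differences of 0.03 and 0.395, did not pass. Hspa4, an HSP110 chosen for mention after its values were seen, depended on the probe set. Its brightest gave 0.06, 2 others rose by 2.70 and 2.28, and 1 fell by 0.82 (adjusted p = 0.00142, 8.42e-04 and 0.025 in a fit of all probe sets).

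Of the 11 members listed in the endoplasmic reticulum class, 2 rose in organoids, 2 fell and 7 did not pass, and the median difference was 0.03. The list left out Dnajc14, which is given below among members of no common class. Hspa13, an HSP70 of the ER that lacks the client-binding domain, had 9.84, 9.54 and 9.88 in MaSC organoids and 9.84, 9.58 and 9.77 in yMaSC organoids, against 10.54, 10.64 and 10.34 in LD cells. Its organoid arrays all lay below the LD arrays (difference -0.77, SE 0.12, adjusted p = 7.5e-04). Hspa5, or BiP, the central chaperone of the ER, had 12.31, 12.31 and 12.69 in MaSC organoids and 12.38, 12.32 and 12.90 in yMaSC organoids, against 12.81, 13.09 and 12.96 in LD cells. The difference of Hspa5 was -0.47 (SE 0.16, adjusted p = 0.0386), with yMaSC organoid C inside the LD range. This call rested on the full set of arrays, since it was lost when any 1 of LD A, B or C or of the A and B organoids of either kind was left out (adjusted p from 0.0508 to 0.124) and after quantile normalization (0.0594). In neither kind of organoid alone did Hspa5 pass (adjusted p = 0.0506 in MaSC and 0.104 in yMaSC organoids), but its other probe sets gave larger falls, of 0.69 and 0.77.

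Dnajc16, a DNAJ of the ER membrane, had 7.34, 7.25 and 6.92 in MaSC organoids and 7.20, 7.25 and 6.65 in yMaSC organoids, against 6.76, 6.23 and 6.37 in LD cells. It rose by 0.65 (adjusted p = 0.0172) with an overlap between yMaSC organoid C and LD A, and not without LD B or LD C (adjusted p = 0.0697 and 0.0627). With the mean of both its probe sets the difference of Dnajc16 was 0.32 and did not pass (adjusted p = 0.18). Dnajc3, an inhibitor of the stress kinase PERK and a partner of BiP, averaged 10.29 ± 0.01 in MaSC organoids and 10.22 ± 0.07 in yMaSC organoids, against 10.01 ± 0.03 in LD cells (SD, n = 3 each). The rise of Dnajc3 by 0.25 was small and without overlap (adjusted p = 0.0211, but 0.0505 without MaSC organoid A, 0.0669 without both C organoids and 0.162 after cyclic loess). Dnajb14, an ER membrane DNAJ, had 7.72, 7.81 and 7.21 in MaSC organoids and 7.93, 7.68 and 7.09 in yMaSC organoids, against 7.16, 7.24 and 7.40 in LD cells. The difference for Dnajb14 was 0.31 (adjusted p = 0.253), and without both C organoids it was 0.52 (0.00855). The other probe set of Dnajb14 rose by 1.48 (adjusted p = 9.5e-05), and the mean of both rose by 0.89 (0.0024). Dnajc10, which reduces disulfides of misfolded proteins, had 9.66 to 10.04 in organoids, against 10.58, 9.15 and 10.54 in LD cells A, B and C. LD B thus decided its result, which was -0.26 over all arrays (adjusted p = 0.519) and -0.73 without LD B (adjusted p = 0.00184). For the remaining members of the lumen and membrane, Hsp90b1, Dnajb9, Dnajb11, Dnajb12 and Dnajc1, the differences ran from -0.18 to 0.20. Dimmer probe sets of Dnajc1 passed in both directions, with differences of 1.09, -0.68 and -0.96 (adjusted p = 1.17e-04, 0.00809 and 0.0276). Dnajb12, which drives ER proteins to degradation, passed at -0.31 after quantile normalization and at -0.32 after cyclic loess (adjusted p = 0.0184 and 0.0158). The other probe set of Dnajb12 had a difference of 0.27 that did not pass (adjusted p = 0.238).

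The genes of the unfolded protein response outside the family were as divided, with 6 of 23 higher in organoids and 6 lower. Of all genes 24.3% were higher and 17.7% lower. Ppp1r15a, which restores translation after stress, fell by 3.73 (adjusted p = 3.78e-06) and Chac1, a glutathione-degrading target of ATF4, also fell (-1.50, 0.0117). Herpud1, a component of ER-associated degradation, rose by 1.48 (3.79e-04).

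Mitochondrial members also moved in both directions. Of 7 measured, 2 rose, 2 fell and 3 did not pass, with a median of -0.11. Dnaja3, the DNAJ partner of mortalin, had 8.97, 9.01 and 8.57 in MaSC organoids and 9.05, 9.10 and 8.75 in yMaSC organoids, against 7.56, 7.78 and 7.67 in LD cells. That is 2.36 times the LD level (difference 1.24, SE 0.13, adjusted p = 9.83e-05). Dnajc30, a DNAJ of the inner membrane linked to the respiratory chain, had 9.47, 9.47 and 9.44 in MaSC organoids and 9.35, 9.54 and 9.43 in yMaSC organoids, against 8.23, 8.55 and 8.57 in LD cells. It was 2-fold higher (difference 1.0, adjusted p = 7.05e-05), and neither gene's groups overlapped. Dnajc11, a DNAJ of the outer membrane bound to the cristae organizing complex, had 7.02, 7.08 and 7.11 in MaSC organoids and 7.22, 7.34 and 7.13 in yMaSC organoids, against 7.71, 8.06 and 7.65 in LD cells. It fell by 0.66 without overlap (adjusted p = 0.00123), although 2 of its 3 dimmer probe sets had differences above 0 (0.32 and 0.12) that did not pass, and the mean of all 4 did not pass (-0.09, adjusted p = 0.321).

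Hspa9, mortalin itself, averaged 10.59 ± 0.06 in MaSC organoids and 10.89 ± 0.23 in yMaSC organoids, against 11.10 ± 0.10 in LD cells. The fall of 0.36 had an adjusted p of 0.0286. It passed in MaSC organoids alone (0.0131) and not in yMaSC organoids (0.241), and leaving out LD A, LD B, MaSC organoid B or C, or yMaSC organoid A or B raised the adjusted p of Hspa9 to 0.0524 to 0.089. Hspe1, the lid of the mitochondrial chaperonin, had 10.47, 10.41 and 11.13 in MaSC organoids and 10.66, 10.43 and 11.25 in yMaSC organoids, against 11.44, 11.03 and 11.27 in LD cells. Only the A and B organoids were below the LD arrays, and the difference of -0.52 did not pass (adjusted p = 0.0897), but did without MaSC organoid C (adjusted p = 0.0306), without yMaSC organoid C (0.0268) or without both (-0.75, adjusted p = 0.00299), and with the mean of all probe sets (-0.61, adjusted p = 0.0442). Hspd1, the barrel of the same chaperonin, differed by -0.11 with an interval from -0.31 to 0.10. Dnajc15, which takes part in protein import, differed by 0.31 (adjusted p = 0.0901). Other genes of mitochondrial protein quality were also split, with 4 of 11 higher and 3 lower, against 24.3% and 17.7% of all genes. Grpel2, a nucleotide exchange factor of mortalin, fell by 1.95 (adjusted p = 2.63e-06), and the protease genes Clpx and Htra2 rose by 0.84 (0.0196) and 0.80 (0.0129).

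Set side by side, the median differences of the inducible cytosolic, ER and mitochondrial classes were -0.33, 0.03 and -0.11, against -0.02 for all genes. Of their 9, 11 and 7 members 3, 2 and 2 fell and 1, 2 and 2 rose. As shares, 33.3%, 18.2% and 28.6% fell, against 17.7% of all genes, and 11.1%, 18.2% and 28.6% rose, against 24.3%. These medians carry no test. With both C organoids left out that of the inducible class was -0.11, and that of the ER class changed its sign with the scaling and with the arrays used.

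Among the small heat shock proteins of muscle, 2 of 4 rose and 0 fell, against 24.3% and 17.7% of all genes. Hspb6, or HSP20, a small heat shock protein known from smooth and striated muscle, had 7.62, 7.69 and 7.32 in MaSC organoids and 7.73, 7.73 and 7.26 in yMaSC organoids, against 5.18, 5.10 and 5.31 in LD cells. The organoids had 5.14 times the level of LD cells (difference 2.36, SE 0.14, adjusted p = 4.64e-06), the smallest adjusted p of any member. Hspb2, a muscle small heat shock protein that pairs with Hspb3, had 5.78, 5.98 and 5.55 in MaSC organoids and 5.96, 5.86 and 5.64 in yMaSC organoids, against 5.31, 5.44 and 5.31 in LD cells, a rise of 0.44 (adjusted p = 0.0144). The other 2 of this class did not pass. Hspa2, an HSP70 best known from male germ cells, had 10.20, 10.36 and 9.53 in MaSC organoids and 9.87, 10.45 and 9.40 in yMaSC organoids, against 6.90, 7.96 and 7.28 in LD cells. At 6.01-fold it had the largest difference of the 71 (2.59, SE 0.30, adjusted p = 1.83e-04). Of the other 7 testis-rich members 6 averaged below the array median, and Hspa4l, at 8.75 in organoids and 8.11 in LD cells, did not pass (adjusted p = 0.3). Dnajb7 rose by 0.28 (adjusted p = 0.0328) and Dnajb13, an axonemal protein of sperm, fell by 0.56 (adjusted p = 0.0403). Both were among these 6 and lost the call when most single arrays were left out (adjusted p up to 0.102 for Dnajb7 without LD A and 0.154 for Dnajb13 without LD A).

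Between organoids and LD cells, basal and myoepithelial markers moved in the same direction as Hspb6, Hspb2 and Hspa2. Of 9 such markers 8 rose, among them Trp63 by 4.98 (adjusted p = 7.81e-07), and 0 fell, against 24.3% and 17.7% of all genes. The mean level of the markers was 7.75 to 9.54 in organoid arrays and 5.07 to 5.49 in LD arrays. Among the organoids it was highest in letter C (9.54 and 8.73, against 7.75 to 8.06 in A and B), where Hspb6, Hspb2 and Hspa2 were lowest. Of 6 markers of skeletal and cardiac muscle, 1 rose (Mb, 2.08, adjusted p = 0.0221) and 0 fell, and their mean level was 4.92 to 5.49 in organoids and 4.73 to 5.03 in LD cells, near the array median. The part of these cell types in the levels of Hspb6, Hspb2 and Hspa2 was not tested.

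**Figure D3:**
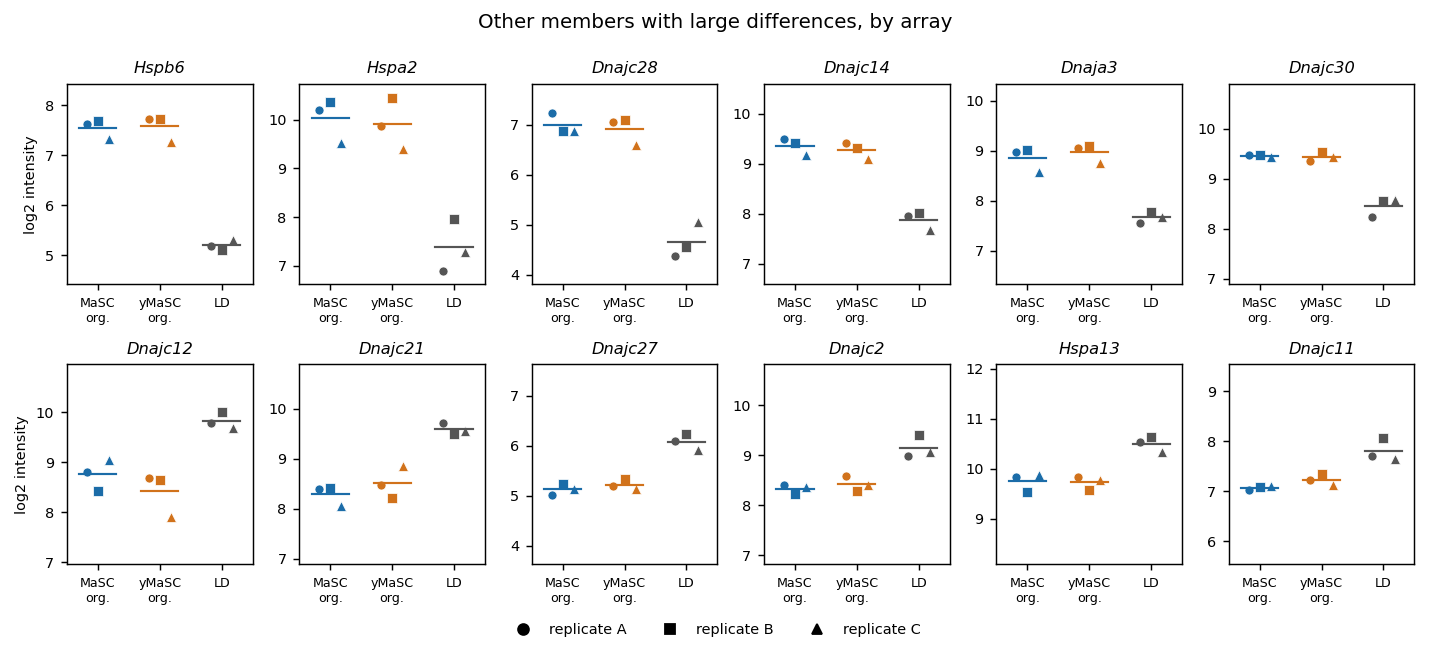
Log2 intensity of 12 further members in each array of MaSC organoids, yMaSC organoids and LD cells, with lines at the group means, marker shapes for the replicate letters and a separate axis range for each gene. In the upper row all organoid arrays lie above the LD arrays, and in the lower row all lie below them.

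Among members of no common class, Dnajc28 had 7.24, 6.88 and 6.88 in MaSC organoids and 7.06, 7.10 and 6.60 in yMaSC organoids, against 4.37, 4.55 and 5.06 in LD cells. It rose by 2.30 (SE 0.18, adjusted p = 2.17e-05), and LD cells were below the array median. Dnajc14, a chaperone of membrane receptors in the ER, had 9.50, 9.41 and 9.17 in MaSC organoids and 9.41, 9.32 and 9.09 in yMaSC organoids, against 7.95, 8.02 and 7.67 in LD cells, and rose by 1.44 (adjusted p = 3.13e-05) on all 3 of its probe sets. Dnajc14 was not listed in the ER class, whose largest rise was 0.65, and is not in the counts or median of that class. Dnajc18 had 8.06, 8.15 and 8.12 in MaSC organoids and 7.96, 7.97 and 8.09 in yMaSC organoids, against 7.36, 6.04 and 7.68 in LD cells. Its rise of 1.03 (adjusted p = 0.0238) was 0.54 without the low LD B, and still passed, but did not pass without both C organoids (adjusted p = 0.064). Dnajb5 rose by 0.34 (adjusted p = 0.0141), but not after quantile normalization or cyclic loess (0.104 and 0.125), and its mean over all 3 probe sets differed by only 0.05 (adjusted p = 0.695). Dnajc12, which guards the aromatic amino acid hydroxylases, fell. It had 8.80, 8.43 and 9.04 in MaSC organoids and 8.69, 8.65 and 7.91 in yMaSC organoids, against 9.78, 10.00 and 9.68 in LD cells (difference -1.23, SE 0.20, adjusted p = 0.00119). The other 6 of this group did not pass, with differences from -0.76 to 0.34.

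Of the 6 nuclear and ribosomal DNAJ proteins 2 rose and 3 fell, with 24.3% and 17.7% of all genes as the background. Dnajc21, which helps to mature the large ribosomal subunit, had 8.40, 8.42 and 8.06 in MaSC organoids and 8.47, 8.22 and 8.86 in yMaSC organoids, against 9.71, 9.49 and 9.56 in LD cells. It fell by 1.18 (SE 0.15, adjusted p = 2.93e-04) on all 5 probe sets. Dnajc2, which sits at the ribosome exit and on chromatin, had 8.40, 8.23 and 8.36 in MaSC organoids and 8.58, 8.29 and 8.40 in yMaSC organoids, against 8.98, 9.40 and 9.07 in LD cells, a fall of 0.77 (adjusted p = 7.47e-04). Dnajc17, a splicing factor, had 8.89, 9.09 and 9.35 in MaSC organoids and 9.20, 9.22 and 9.75 in yMaSC organoids, against 9.68, 10.48 and 9.84 in LD cells. Its groups overlapped, and the fall of 0.75 (adjusted p = 0.0174) did not pass without LD B (0.0591) or with the mean of its probe sets (-0.25, 0.0533). In contrast, Dnajc9, a histone chaperone, had 7.92, 7.50 and 7.85 in MaSC organoids and 7.99, 7.62 and 7.29 in yMaSC organoids, against 7.0, 6.58 and 7.18 in LD cells. It rose by 0.78 without overlap (adjusted p = 0.00964), as did Dnajc24, which serves the diphthamide modification of elongation factor 2, by 0.69 (adjusted p = 0.0158). Dnajc24 did not pass after quantile normalization or cyclic loess, or without both C organoids (adjusted p from 0.0501 to 0.0604). Of the 4 vesicle and trafficking members, Dnajc27, which joins a Rab-like GTPase to a J domain, had 5.02, 5.24 and 5.14 in MaSC organoids and 5.19, 5.33 and 5.14 in yMaSC organoids, against 6.09, 6.24 and 5.91 in LD cells. It fell by 0.90 (adjusted p = 1.42e-04) and the other 3 did not pass. For Dnajc13, a protein of endosomes, the dimmer of its probe sets nevertheless fell by 1.08 (adjusted p = 5.83e-04), against a difference of 0.11 on the brighter one. Hsf2, a heat shock factor, averaged below the array median, with 4.45 to 5.25 in organoids and 4.39 to 4.68 in LD cells (difference 0.36, adjusted p = 0.157). Its other probe set fell by 0.37 (adjusted p = 0.0399).

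Each kind of organoid was then compared with LD cells on its own, with the same 3 LD arrays in both comparisons. In MaSC organoids 14 members rose and 12 fell, against 22.1% and 15.2% of all genes. In yMaSC organoids 12 members rose and 9 fell, against 21.6% and 14.3% of all genes. The counts of members that rose depended on single arrays. The 14 became 7 without MaSC organoid A and 8 without MaSC organoid B, and the 12 became 6 without yMaSC organoid A and 7 without yMaSC organoid B.

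Between the organoid kinds no chaperone passed the test. In yMaSC organoids relative to MaSC organoids 0 members and 0% of all genes passed in limma, and 1 member and 104 genes had an unadjusted p under 0.05. With the letters as a block in the organoids alone, 0 members passed. The member was Hspa9, at 0.30 with an interval from 0.01 to 0.59 (unadjusted p = 0.0462, adjusted p = 1). For 68 of the 71 members the 95% interval of the difference lay within 1 log2 unit, as it did for 16954 of the 18194 genes. The median size of the difference was 0.09 for the members and 0.07 for all genes. For Dnajb1 the difference was 0.05 (-0.27 to 0.37), for Hsp90aa1 0.02 (-0.25 to 0.29) and for Hspb6 0.03 (-0.33 to 0.39). Intervals beyond 1 log2 unit were left for Hsph1 (-0.37 to 1.06), Hspa4l (-0.74 to 1.68) and Dnajc6 (-1.18 to 0.40). In Hspa4l, an HSP110 of germ cells, yMaSC organoid A read 10.37, against 7.91 to 8.97 in the other organoids.

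Several chaperones differed between the replicate letters of the organoids. In the 6 organoid arrays, with the kind in the fit, 8 of 71 members differed between letters, against 5.52% of all genes. The letter C organoids stood apart from A and B in all 8. In 6 of them C was lower, by 0.97 for Hspb1, 0.86 for Hspa4, 0.84 for Hspa1b, 0.77 for Dnaja4, 0.76 for Hspa2 and 0.67 for Hspa1a, with adjusted p from 0.0188 for Dnaja4 to 0.0463 for Hspa1b. In 2 it was higher, by 0.70 for Hspe1 (adjusted p = 0.0301) and by 0.96 for Hspb11 (0.0393), a component of intraflagellar transport. These adjusted p belong to the F-test over all letters, and the difference of C from A and B was not tested on its own. Hspb11 had 7.38, 7.73 and 8.27 in MaSC organoids and 7.39, 7.65 and 8.72 in yMaSC organoids, against 8.36, 8.80 and 8.70 in LD cells. Hspa4, Dnaja4 and Hspb11 are named here because they passed this test, after their values were seen. Other genes moved with the letter as well. The mean level of 7 cell cycle genes was 7.76 and 7.67 in the C organoids of MaSC and yMaSC origin, against 5.61 to 6.07 in the A and B organoids, and both basal markers (9.54 and 8.73, against 7.75 to 8.06) and luminal markers (11.61 and 11.29, against 10.92 to 11.01) were highest in C. The part of these in the chaperone values was not tested, and the labels do not say what a letter stands for beyond a biological replicate.

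**Figure D4:**
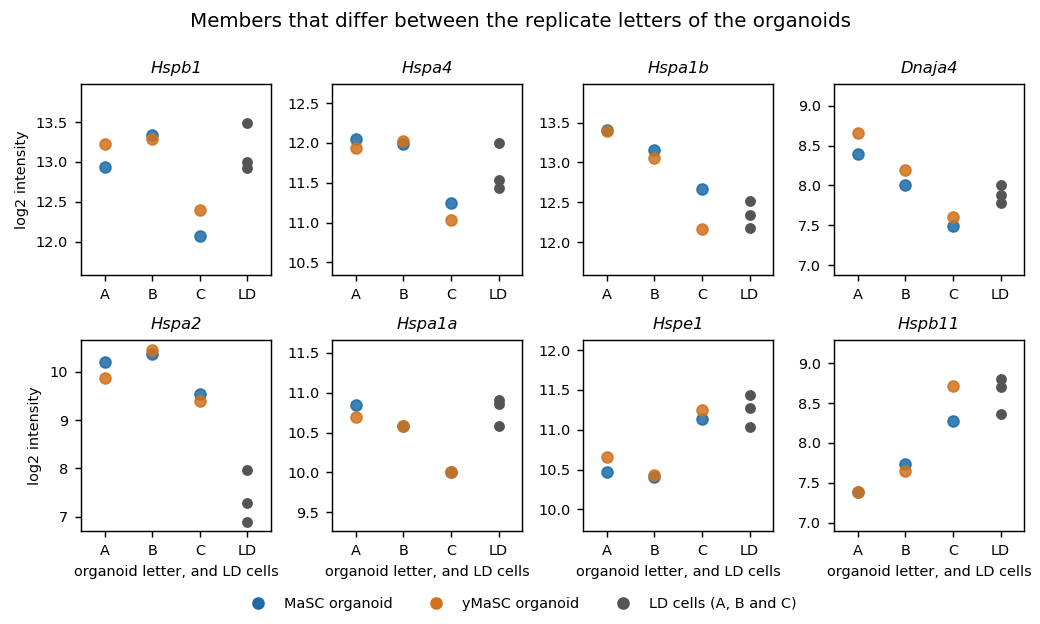
Log2 intensity of the 8 members that differed between the replicate letters of the organoids, with MaSC and yMaSC organoids as points at letters A, B and C, and the 3 LD arrays at the right. Hspb1, Hspa4, Hspa1b, Dnaja4, Hspa2 and Hspa1a are lower in letter C of both kinds, and Hspe1 and Hspb11 are higher.

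Markers of other cell types also differed among the LD arrays. LD B stood apart in the mean level of fibroblast markers (7.93, against 6.58 and 6.18 in LD A and C), endothelial markers (5.60, against 3.84 and 3.90) and adipocyte markers (5.94, against 3.45 and 3.47), and in cell cycle genes (6.20, against 8.25 and 7.80). Among immune markers Ptprc had a mean of 2.83 in both kinds of organoid and 8.53 in LD cells, and 3 of 5 such markers fell. Over all genes 17.7% were lower in organoids and 24.3% higher. Of 8 luminal markers 5 were lower in organoids, among them Krt8 (mean of 14.19 in LD cells), and 2 were higher, Gata3 and Elf5. The paper describes luminal cells inside the organoids too, so these differences do not test the identity of LD cells. Without LD B, 15 members rose in organoids and 12 fell, with the share of all genes not taken in that setting.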

How the data were processed

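RNA of MaSC organoids, yMaSC organoids and LD cells was measured on 9 Affymetrix mouse arrays, 3 per group, and groups were taken from the sample labels. The values are log2 intensities that the authors computed by RMA (background correction, normalization across arrays and summary of probes) and deposited. Sources used here give no RMA version. There were 0 columns of other samples in the table. Gene names came from the array's annotation: 34958 of 45101 probe sets had 1 gene, 932 had several and 9211 had none. All 71 members were found in RefSeq by gene identifier, and 0 had a changed symbol. The probe set with the highest mean stood for a gene, with no filter on low values. For 46 members more than 1 probe set was measured. In 22 of these all probe sets shared the call, and in 2, Dnajc1 and Hspa4, some rose and others fell.

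A linear model of the 3 groups, without the letter, was fitted to all 18194 genes in limma 3.58.1 (R 4.3.3), with its empirical Bayes spread. Organoids (mean of both kinds) and each kind were compared with LD cells, and yMaSC with MaSC organoids. The threshold was an adjusted p of 0.05 by Benjamini and Hochberg's method over all genes. The letter was tested by an F-test in the 6 organoid arrays with the kind as a term. Letters paired the organoids (r of the deviations of same-lettered arrays from their group means 0.607, 0.611 and 0.649) but not organoids with LD cells (-0.046 to 0.045). The main fit took the 6 organoid arrays as independent, so that its SE for organoids against LD cells may be too small. Alternatives with the letter as a block also tied the LD letters, and none paired the organoids alone in that comparison. The scripts were tested on simulated data. The number of arrays limits the precision. Members, classes and lists were chosen with earlier results of these data known. All members of the inducible, ER and mitochondrial classes could be named, of other members those that passed, and of each further list up to 3 with the largest change. Members outside this rule whose probe sets disagreed or whose call depended on a setting were named after their values were seen. Lists were HSP90 and HSP70 partners, CCT, unfolded protein response, mitochondrial protein quality, dissociation genes, cell cycle and cell type markers. Promoter sequences are from RefSeq (GRCm38.p6).

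Alternatives were the letter as a fixed or random block, genes above the median, the mean of all probe sets, quantile normalization, cyclic loess, a common median, a trended and robust prior, arrayWeights, only the groups compared and each array left out. Those without both C organoids and with other probe sets were added after seeing the data.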

Additional observations from a re-analysis of the deposited data

How the results depend on the processing

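The counts of members that rose or fell in organoids (16 and 13) were 13 to 18 and 10 to 15 with 1 array left out, and 12 to 20 and 11 to 15 in the other settings. These counts were not set against the share of all genes in each setting. In MaSC organoids the 14 members that rose became 9 after cyclic loess and 7 to 13 with 1 array left out. The 12 that rose in yMaSC organoids became 7 when only the groups compared were fitted, and 6 to 14 with 1 array left out. With the letter as a replicate block, 20 members rose and 15 fell, and between the organoid kinds 0 passed in each of 21 settings, paired or not. With the block Hspa1b, Dnajc4, Hsf2 and Dnajc15 also rose (adjusted p = 0.0187, 0.0116, 0.032 and 0.0421), Hspa1a, Hspb11 and Hspe1 also fell (0.0395, 0.0142 and 0.0264) and Dnajb13 lost its call (0.0633), and letters did not pair the organoids with LD cells. The ER class median of 0.03 was 0.0492 with the mean of all probe sets, -0.0211 after quantile normalization, -0.12 after cyclic loess, -0.0517 without both C organoids and -0.045 to 0.0633 with 1 array left out. The inducible and mitochondrial medians stayed below 0 (-0.43 to -0.11 and -0.17 to -0.01). Of the 100 other probe sets of members 24 had the opposite sign, in 19 members, among them Dnaja3 (-0.15), Dnajb4 (0.39), Dnajb5 (-0.25), Dnajc11 (0.32 and 0.12), Dnajc16 (-0.0050), Dnajc17 (0.0467) and Dnajc3 (-0.18), which did not pass. The 6 of the 24 that passed all fell and belonged to Hspa8 (-2.42), Dnajc13 (-1.08), Dnajc1 (-0.68 and -0.96), Hspa4 (-0.82) and Hsf2 (-0.37), members whose brightest probe set did not pass. With the mean of all probe sets Dnajb5, Dnajc11, Dnajc16 and Dnajc17 lost their calls, Dnajb14, Dnajc7, Dnajc8 and Hspa4 also rose, and Dnajc13, Hspa8 and Hspe1 also fell. Of the 29 members that passed, 16 kept their call and direction in every alternative with 1 value per gene, and 13 lost the call in at least 1. Members below the array median, 10 in all, have differences that the signal limits.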
